A study of Mus musculus with 8 samples.

Results

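The 57 genes described here encode the machinery that builds ribosomes in the nucleolus, together with Myc, the transcription factor known for raising that machinery when cells grow. They were listed by name after the group had been noticed in these libraries, and were matched to the count table by Ensembl identifier and symbol. All 57 were found among the 54309 genes of the table, and all 57 were among the 15472 genes tested. The list was therefore chosen with the antiCD47 against IgG contrast in view, so the differences of its members are given as a description and carry no p-value of their own.

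Polyadenylated RNA was measured in whole liver of C57BL/6 males. All of them ate a diet of fructose, palmitate and cholesterol for 16 weeks, which produces steatohepatitis, a fatty, inflamed and scarring liver. From week 8 to week 16 the antiCD47 mice received anti-CD47 into the peritoneum at a dose of 200 µg, and the IgG mice received control IgG. CD47 is a surface protein that holds back engulfment by macrophages through their receptor SIRPα. Each treatment has 4 libraries, and no age, genotype or animal identity is given with them. Since no label ties the libraries to separate animals, p-values measure the spread between these samples, which may be technical.

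Ribosome production starts when RNA polymerase I copies the ribosomal DNA into a long precursor. Small nucleolar RNPs (snoRNPs) then guide its chemical modification, the box C/D kind for methylation of ribose and the H/ACA kind for pseudouridine, while the small subunit processome and the large subunit assembly factors fold, cut and package the RNA with ribosomal proteins. Hepatocytes are known to expand this machinery in regeneration and in the acute phase response, and dividing or activated immune cells also express it strongly. In whole liver, a difference in the number of cells of a type and a difference in RNA per cell cannot be told apart.

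Myc and its partner Max bind the E-box CACGTG, a motif that other basic helix-loop-helix factors bind too, and promoter sequence is shown for that reason. RefSeq windows of 300 bases (250 before to 50 after the transcription start, build GRCm38.p6) were at hand for 47 members, and Bop1, Dcaf13, Fbl, Gnl2, Gnl3l, Myc, Npm1, Rrp12, Utp6 and Wdr36 had no entry. CACGTG, which reads the same on both strands, was present in 11 of the 47 (23.4%), against 1290 of 11517 tested genes with a window (11.2%). The related CACGCG, searched on both strands as CACGCG or CGCGTG, which cannot be the same 6 letters as CACGTG, was in 15 of the 47 (31.9%) and in 2125 of the 11517 (18.45%). A match is only a stretch of letters and not a measured binding site. The 12 matches to CACGTG are printed 5′ to 3′ on the strand of each gene with up to 12 bases on either side, the motif in capitals.
Rrn3 distal: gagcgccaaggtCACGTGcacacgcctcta
Rrn3 proximal: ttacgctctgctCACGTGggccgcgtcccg
Nop2: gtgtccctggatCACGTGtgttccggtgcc
Pes1: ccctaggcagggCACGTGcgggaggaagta
Mybbp1a: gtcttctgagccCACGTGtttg
Imp4: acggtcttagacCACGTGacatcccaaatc
Ltv1: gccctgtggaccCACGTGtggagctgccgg
Tsr1: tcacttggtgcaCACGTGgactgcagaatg
Utp18: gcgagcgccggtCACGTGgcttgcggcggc
Utp20: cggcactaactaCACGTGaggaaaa
Utp4: tgcgcaagcgcgCACGTGgggccggggcgg
Wdr43: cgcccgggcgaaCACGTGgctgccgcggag

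Only the 250 bases before and 50 after the start were searched, so these matches had to lie near it. In Rrn3 they began 215 and 48 bases before the start, in Nop2 60, in Imp4 121 and in Utp18 20 bases before it. The other 7 matches lay after the start that RefSeq gives, beginning at base 3 in Pes1, 16 in Utp4, 18 in Wdr43, 25 in Tsr1, 29 in Ltv1, 38 in Utp20 and 41 in Mybbp1a. The last 30 bases of the window were not found in a GENCODE transcript of the gene for Ltv1, Mybbp1a, Nop2 and Imp4, so whether these bases are transcribed was not settled for them. The stretch of Tsr1 is chr11:74898092-74898121 (+), that of Wdr43 chr17:71616220-71616249 (+), that of Nop2 chr6:125131811-125131840 (+) and that of Utp4 chr8:106893643-106893672 (+), all in GRCm38.p6. Rrn3 was the member with more than 1 match, and the 250 bases before its start, chr16:13780449-13780698 (+), are shown with both motifs in capitals.
Rrn3: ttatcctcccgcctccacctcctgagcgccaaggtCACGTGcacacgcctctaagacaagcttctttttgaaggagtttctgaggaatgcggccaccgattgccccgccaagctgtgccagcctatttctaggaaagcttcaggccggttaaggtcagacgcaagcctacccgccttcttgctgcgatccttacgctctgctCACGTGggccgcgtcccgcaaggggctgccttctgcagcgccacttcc

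Among the 23 members with a window that passed the threshold described below, 5 held CACGTG (21.7%), and among the 24 that did not pass, 6 did (25%). Members with the E-box were thus found on both sides of the threshold: Tsr1 was at a log2 fold change of 0.88, while Pes1 and Imp4 were at 0.14 and 0.12. Of the ribosomal protein genes, 6 of 58 with a window held it (10.3%).

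Genes of nearly every step of ribosome production were among those higher in the antiCD47 livers, led by Nop58, Rrp12, Tsr1, Gnl3 and Heatr1. The RNA of genes for abundant nucleolar proteins, such as nucleolin and nucleophosmin, overlapped between the treatments, and Myc had its highest values in IgG livers. Of the 57 members, 25 rose and 0 fell (edgeR quasi-likelihood test, Benjamini-Hochberg adjusted p below 0.05 over all genes, two-sided), where 5.44% of all genes tested passed as higher and 5.4% as lower. The 4 antiCD47 libraries lay above the 4 IgG libraries without overlap in 31 members, against 9.51% of all genes tested. These shares describe members picked from the same contrast and support nothing by themselves. The median log2 fold change of the members was 0.31 (antiCD47 over IgG), beside -0.01 for all genes tested, and 53 members lay above 0. The members ranged from -1.39 for Myc and -0.04 for Ddx56, the lowest of the others, to 0.97 for Nop58. At an unadjusted p below 0.05, 36 members were higher and 1, Myc, was lower, where 16.6% of all genes tested were higher and 16% lower at that p. DESeq2 called 30 higher and 1 lower, where it called 11% and 9.57% of all genes.

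**Figure D1:**
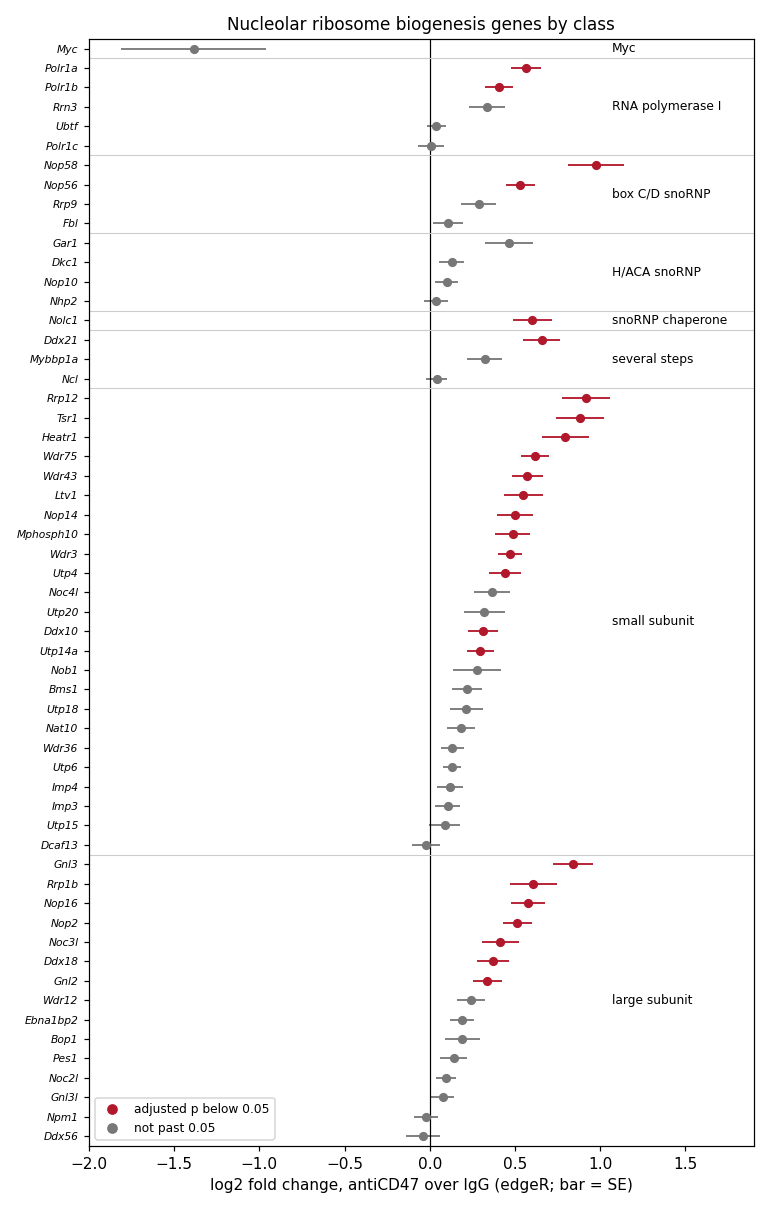
Log2 fold change of each of the 57 members, antiCD47 over IgG, with its standard error as a bar (edgeR, 4 libraries per treatment); red points passed an adjusted p of 0.05. The 25 red points lie to the right of 0 in every class but H/ACA snoRNP and Myc, and Myc lies far to the left at -1.39 with the widest bar.

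The number of calls rested on single libraries, as it did for the whole table. Without IgG 1, 7 members passed as higher, without IgG 3 2, and without IgG 4 or antiCD47 3 none passed, while the genes called in the whole table came to 174, 92, 2 and 21 in these same fits. The log2 values moved far less: with each library left out in turn the members' median stayed between 0.24 and 0.35. In the fits without IgG 4 and without antiCD47 3, 33 and 32 members were higher at an unadjusted p below 0.05, where 14% and 13.4% of all genes were. Scaling by library totals alone moved the median of all genes to -0.19 and that of the members to 0.12, with 18 members higher (2.77% of all genes), 1 lower (20.4% of all genes) and 37 above 0. With that scaling, 22 members were higher (5.5% of all genes) and 7 lower (36.6% of all genes) at an unadjusted p below 0.05. Upper quartile scaling gave 21 members higher (4.1% of all genes) and 0 lower (6.26% of all genes), with 1 member lower at an unadjusted p below 0.05 (20.3% of all genes). The gap between the members' median and that of all genes was 0.319 with the scaling used here and 0.315 with library totals. A change of scaling shifts every gene by nearly the same amount, so this gap could hardly differ and is no check on the scaling.

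Relative to the scaled library size, the 57 members held 0.16 ± 0.012% in antiCD47 and 0.135 ± 0.00161% in IgG (SD, n = 4 each). Their summed level was 1499 to 1765 CPM (counts relative to the scaled library size) in antiCD47 and 1333 to 1372 CPM in IgG. These sums did not overlap under this scaling. The scaling factors were 0.8954 to 0.9886 in antiCD47 and 1.026 to 1.11 in IgG, so the values are not shares of the unscaled counts. Without these factors the shares of the treatments did overlap: that of antiCD47 1 (factor 0.9555) lay below that of IgG 4 (factor 1.11). The lack of overlap in the sums thus depends on the scaling. By the mean log2 CPM of the members relative to the IgG mean, antiCD47 2 was highest at 0.44, followed by antiCD47 3 at 0.32, antiCD47 1 at 0.23 and antiCD47 4 at 0.18. The IgG libraries lay between -0.02 and 0.04. The spread among antiCD47 libraries was thus wider than among IgG libraries, and among the 25 members that rose, antiCD47 2 was the highest library in 24 and antiCD47 2 and 3 were the highest pair in 24.

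**Figure D2:**
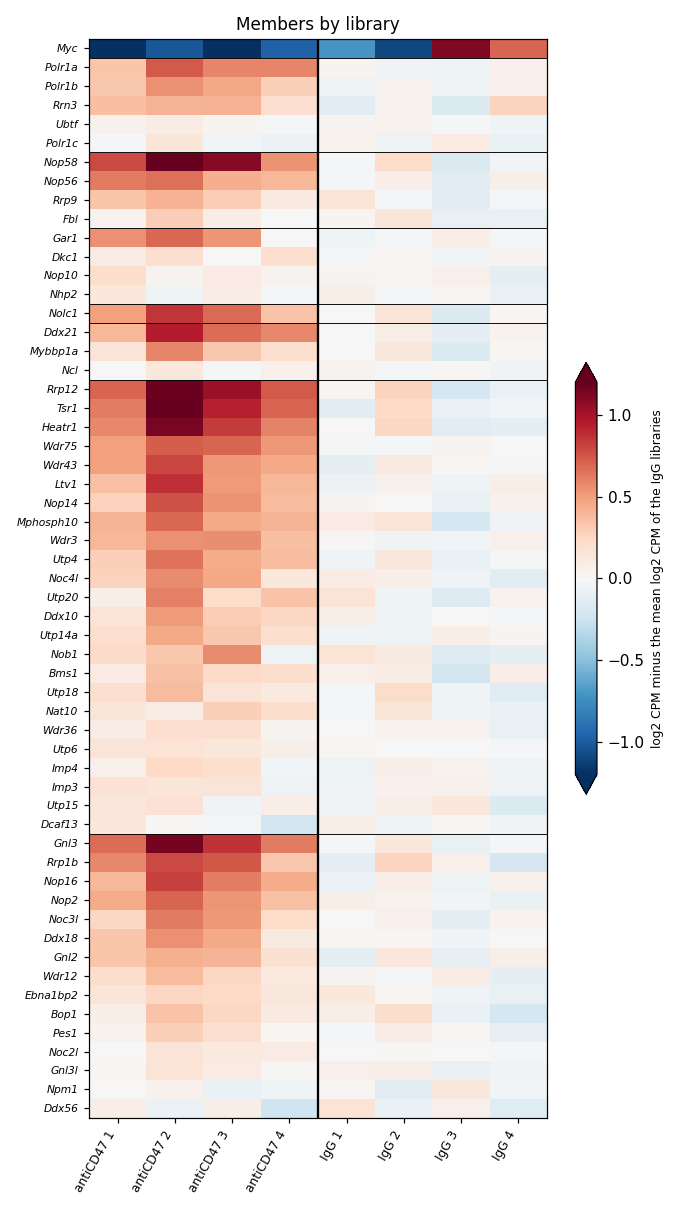
Each row is a member and each column a library (antiCD47 on the left, IgG on the right); the colour is log2 CPM minus the mean log2 CPM of the IgG libraries, cut at the ends of the scale. Columns antiCD47 2 and 3 are the reddest, rows such as Npm1, Ncl, Ubtf and Polr1c stay pale, and Myc is high in IgG 3 and IgG 4.

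Markers of several other cell types and states moved between the same groups. No marker passed by edgeR among 5 of B and plasma cells, 6 of T and NK cells and 6 of endothelial cells. The medians of those lists were 0.66, -0.79 and -0.08. B and plasma cell markers summed to 6.225 to 9.96 CPM in antiCD47 and 2.92 to 5.55 CPM in IgG. T and NK cell markers summed to 3.01 to 7.85 CPM in antiCD47 and 2.79 to 16.2 CPM in IgG. Acute phase genes (8 of 8 higher) summed to 9479 to 18420 CPM in antiCD47 and 3927 to 7938 CPM in IgG. Neutrophil markers (6 of 6 higher) summed to 14.3 to 32.3 CPM in antiCD47 and 6.15 to 8.49 CPM in IgG. Kupffer cell markers (5 of 6 higher) summed to 308 to 572 CPM in antiCD47 and 159 to 299 CPM in IgG, and erythroid markers (6 of 7 tested higher) summed to 783 to 1364 CPM in antiCD47 and 290.4 to 444 CPM in IgG. Cholangiocyte markers (5 of 6 lower), of which Spp1 makes up most, summed to 95.3 to 329 CPM in antiCD47 and 398 to 547 CPM in IgG. Stellate cell markers (2 of 6 lower) summed to 255 to 373 CPM in antiCD47 and 457 to 674 CPM in IgG. The 2 were the collagen genes Col1a1 (-1.25) and Col3a1 (-1.18), which make up most of the IgG sum. Pdgfrb (-0.43), Lrat (-0.04), Reln (0.17) and Des (0.18) did not pass. Markers of dividing cells (2 of 7 lower) summed to 15.2 to 35.6 CPM in antiCD47 and 37.1 to 41.2 CPM in IgG. Hepatocyte markers (1 of 6 higher, Hnf4a at 0.58, edgeR adjusted p = 0.0382), of which Alb makes up most, summed to 58730 to 69520 CPM in antiCD47 and 56010 to 60610 CPM in IgG. No marker of neutrophils, Kupffer cells or dividing cells was at 0 counts in any library. The antiCD47 library with the highest member level, antiCD47 2, also had the highest acute phase, Kupffer, neutrophil and hepatocyte levels by mean log2. By summed CPM, however, the acute phase level was highest in antiCD47 3, at 18420 CPM. Erythroid (1.06) and B and plasma cell (0.46) levels by mean log2 were highest in antiCD47 4, the antiCD47 library with the lowest member level. The part of these cells and states in the members' differences was not tested.

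Of the 5 RNA polymerase I genes 2 rose, with a median of 0.34, or 0.14 with library totals. Polr1a, the largest catalytic subunit, measured 18.98, 24.99, 22.6 and 22.6 CPM in antiCD47 1 to 4, against 15.4, 14.6, 14.6 and 15.7 CPM in IgG 1 to 4, a log2 fold change of 0.56 ± 0.09 (SE). Polr1b, which forms the active site with it, measured 13.2, 15.4, 14.5 and 12.8 CPM in antiCD47 1 to 4, against 10.1, 10.9, 10.2 and 10.99 CPM in IgG 1 to 4 (0.41 ± 0.08). Both rose, and their libraries did not overlap. Rrn3, which brings the polymerase to the promoter, measured 20.9, 21.5, 21.7 and 18.6 CPM in antiCD47 1 to 4, against 14.9, 16.7, 14.4 and 19.5 CPM in IgG 1 to 4. IgG 4 reached into the antiCD47 range, and at 0.34 ± 0.10 Rrn3 did not pass. Polr1c, a subunit that RNA polymerase III also uses, measured 12.3, 13.8, 12.2 and 11.9 CPM in antiCD47 1 to 4, against 12.9, 11.9, 13.3 and 11.8 CPM in IgG 1 to 4. Its groups overlapped (0.01 ± 0.08), and so did those of Ubtf, the factor that opens ribosomal DNA, at 52.9 ± 1.66 CPM in antiCD47 and 51.5 ± 1.62 CPM in IgG (SD, n = 4 each; log2 0.04 ± 0.06).

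Box C/D snoRNPs methylate ribose with fibrillarin as the enzyme and Nop56 and Nop58 as the paired core proteins. Of its 4 genes 2 rose, with a median of 0.41, or 0.22 with library totals. Nop58 measured 28.5, 42.2, 35 and 23.9 CPM in antiCD47 1 to 4, against 16.2, 19.1, 14.6 and 16.1 CPM in IgG 1 to 4, a log2 fold change of 0.97 ± 0.16 and the highest of all members. The lowest antiCD47 library, antiCD47 4, still lay above the highest IgG library. Nop56 measured 23.2, 23.9, 20.4 and 19.8 CPM in antiCD47 1 to 4, against 14.9, 15.9, 13.7 and 15.8 CPM in IgG 1 to 4 (0.53 ± 0.09). Fbl, the gene of fibrillarin, measured 25.9, 30.9, 26.9 and 25.1 CPM in antiCD47 1 to 4, against 25.8, 27.8, 23.7 and 23.6 CPM in IgG 1 to 4, and with overlapping groups it was at 0.11 ± 0.09. Rrp9, the protein that marks the U3 snoRNP, measured 7.08, 7.51, 6.901 and 6.07 CPM in antiCD47 1 to 4, against 6.33, 5.57, 5.18 and 5.55 CPM in IgG 1 to 4 (0.29 ± 0.10, not past). Within this single particle, therefore, Nop56 and Nop58 passed and Fbl and Rrp9 did not, and the difference between them was not tested.

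H/ACA snoRNPs, which make pseudouridine and also hold telomerase RNA, contained no member that passed by edgeR (1 of 4, Gar1, at an unadjusted p below 0.05, and 1 by DESeq2). Gar1 measured 8.03, 8.82, 7.88 and 5.49 CPM in antiCD47 1 to 4, against 5.299, 5.402, 5.79 and 5.43 CPM in IgG 1 to 4. The first 3 antiCD47 libraries stood above every IgG library and antiCD47 4 stood inside the IgG range, and the log2 fold change was 0.46 ± 0.14, or 0.59 without antiCD47 4. Dkc1, the pseudouridine synthase, measured 13.4, 14.5, 12.6 and 14.4 CPM in antiCD47 1 to 4, against 12.3, 12.8, 12.3 and 12.9 CPM in IgG 1 to 4 (0.13 ± 0.07). Nop10, a small core protein, measured 32.7, 29.1, 30.1 and 29 CPM in antiCD47 1 to 4, against 28.8, 28.7, 29.4 and 26.1 CPM in IgG 1 to 4 (0.10 ± 0.07). Nhp2 measured 19.5, 17.3, 19.02 and 17.7 CPM in antiCD47 1 to 4, against 18.8, 17.8, 18.1 and 16.9 CPM in IgG 1 to 4 (0.04 ± 0.07). The median of the 4 was 0.11, and -0.07 with scaling by library totals. Nolc1, which escorts both kinds of snoRNP between Cajal body and nucleolus, measured 37.9, 48.8, 42.96 and 34.05 CPM in antiCD47 1 to 4, against 27, 29.8, 23.8 and 27.2 CPM in IgG 1 to 4. It rose by 0.60 ± 0.12 on the log2 scale, with no overlap.

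**Figure D3:**
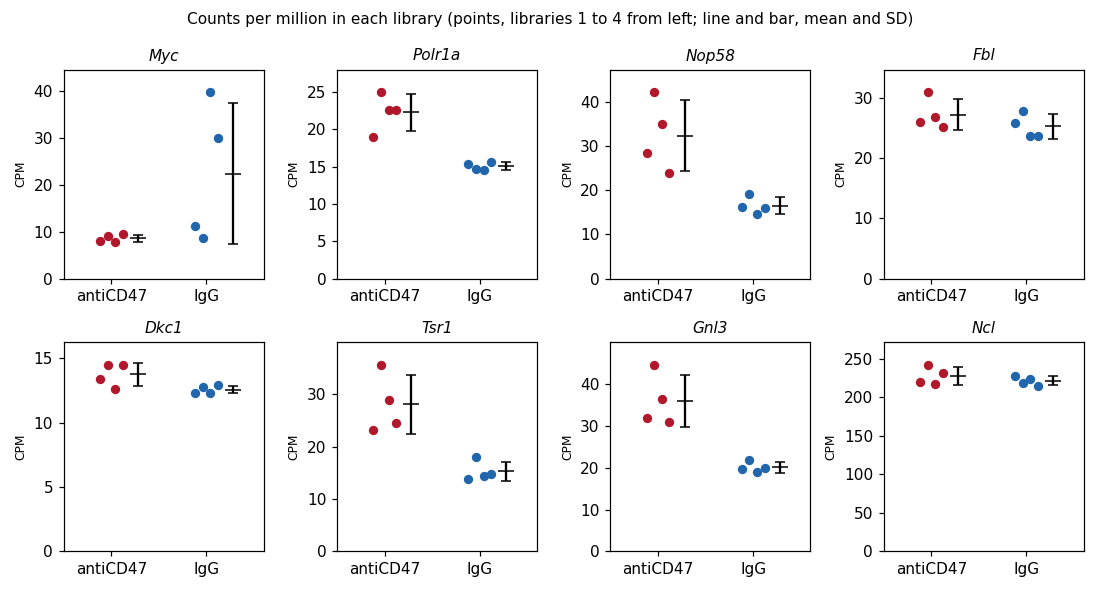
CPM of 8 members in each library, antiCD47 left and IgG right, with mean and SD beside the points and axes that start at 0. Polr1a, Nop58, Tsr1 and Gnl3 show antiCD47 libraries above every IgG library, Fbl, Dkc1 and Ncl overlap, and Myc has 2 high IgG libraries.

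Of the 24 small subunit genes, 12 rose and the other 12 did not pass, with a median of 0.32, or 0.13 with library totals. Wdr75 measured 11.7, 13.7, 13.4 and 11.9 CPM in antiCD47 1 to 4, against 8.16, 8.18, 8.45 and 8.298 CPM in IgG 1 to 4. The IgG values sat close together, below every antiCD47 value, and the log2 fold change was 0.62 ± 0.08. Wdr3 measured 20.2, 22.3, 22.5 and 19.6 CPM in antiCD47 1 to 4, against 15.4, 14.8, 14.9 and 15.9 CPM in IgG 1 to 4 (0.47 ± 0.07). Rrp12, which helps the pre-40S particle mature and leave the nucleus, measured 8.75, 12.2, 11.1 and 9.01 CPM in antiCD47 1 to 4, against 5.49, 6.49, 4.67 and 5.1 CPM in IgG 1 to 4, a fold of 1.89 (0.92 ± 0.14). Tsr1, a GTPase-like factor of late 40S maturation, averaged 28.1 ± 5.59 CPM in antiCD47 and 15.3 ± 1.85 CPM in IgG (0.88 ± 0.14). Dcaf13 was at the other end with 23, 21.3, 20.7 and 17.97 CPM in antiCD47 1 to 4, against 22.1, 20.3, 21.4 and 20.4 CPM in IgG 1 to 4 (-0.02 ± 0.08), its groups overlapping throughout.

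Grouped by the modules of the processome, UtpA, which binds the nascent precursor and is tied to RNA polymerase I transcription, had 4 of its 5 listed members higher. Heatr1 was at 0.80, Wdr75 at 0.62, Wdr43 at 0.57 and Utp4 at 0.44, while Utp15 was at 0.09 and did not pass. Of the 4 listed members of UtpB, a second module, Wdr3 rose and Utp18 (0.21), Wdr36 (0.13) and Utp6 (0.13) did not pass. In the Mpp10 complex, Mphosph10 rose (0.49) and its partners Imp3 (0.11) and Imp4 (0.12) did not. Nop14 (0.50), Ltv1 (0.55), the helicase gene Ddx10 (0.31) and Utp14a (0.30) also rose. Nop14 binds Noc4l, which was at 0.36 with no overlap and did not pass. Utp20 (0.32), the endonuclease gene Nob1 (0.28), the GTPase gene Bms1 (0.22) and the RNA acetyltransferase gene Nat10 (0.18) did not pass. Modules were compared after their values were seen, and no difference between them was tested.

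Of the 15 large subunit genes, 7 rose and 8 did not pass, with a median of 0.24, or 0.05 with library totals. Gnl3, the gene of nucleostemin, a nucleolar GTP-binding protein, measured 31.9, 44.6, 36.5 and 30.9 CPM in antiCD47 1 to 4, against 19.7, 21.9, 18.9 and 19.9 CPM in IgG 1 to 4 (0.84 ± 0.12). Nop2, an RNA methyltransferase, measured 22.5, 26.8, 23.7 and 21.03 CPM in antiCD47 1 to 4, against 17.2, 16.97, 16.1 and 15.6 CPM in IgG 1 to 4 (0.51 ± 0.08). Nop16 measured 21.6, 29.04, 25.2 and 22.5 CPM in antiCD47 1 to 4, against 15.7, 17.5, 15.8 and 17.1 CPM in IgG 1 to 4 (0.57 ± 0.10). In all 3 the libraries of the treatments did not overlap. Rrp1b (0.61), Noc3l (0.41), the helicase gene Ddx18 (0.37) and Gnl2 (0.34) rose too, whereas Gnl3l, the closest relative of Gnl3 in the list, was at 0.08 and did not pass.

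The PeBoW complex, needed to process the large subunit RNAs, had no member past the threshold by edgeR (1 of 3 at an unadjusted p below 0.05, and 1 by DESeq2). Wdr12 was at 0.24 ± 0.08, Bop1 at 0.19 ± 0.10 and Pes1 at 0.14 ± 0.08, and Wdr12 was the one whose libraries did not overlap. Ebna1bp2 was at 0.19 and Noc2l at 0.09. Npm1, nucleophosmin, a very abundant nucleolar chaperone, measured 142, 146, 133 and 136 CPM in antiCD47 1 to 4, against 144, 129.5, 154 and 138 CPM in IgG 1 to 4 (-0.02 ± 0.07). The helicase gene Ddx56 was at -0.04 ± 0.10. Npm1 is known to have processed pseudogene copies, so its count is uncertain to the extent that reads were shared with them.

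Genes of proteins with roles in several steps behaved unevenly. Ddx21, a helicase that couples RNA polymerase I transcription to precursor processing, measured 48.8, 71.1, 59.1 and 55.2 CPM in antiCD47 1 to 4, against 37.2, 38.9, 34.2 and 38.1 CPM in IgG 1 to 4, and it rose by 0.66 ± 0.11 on the log2 scale. Mybbp1a, a nucleolar Myb-binding protein, measured 50.9, 68.6, 57.1 and 52.8 CPM in antiCD47 1 to 4, against 46.03, 50.2, 40.9 and 46.5 CPM in IgG 1 to 4, with no overlap, and was at 0.32 ± 0.10 without passing. Ncl, nucleolin, the most highly counted member, measured 219.9, 242, 217 and 231 CPM in antiCD47 1 to 4, against 228, 219, 224 and 214 CPM in IgG 1 to 4 (0.04 ± 0.06), with groups that overlapped.

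Myc itself had a lower mean level in antiCD47 livers, with a wide spread among the IgG libraries. It measured 7.91, 9.08, 7.84 and 9.43 CPM in antiCD47 1 to 4, against 11.3, 8.66, 39.7 and 29.8 CPM in IgG 1 to 4. IgG 3 and IgG 4 were far above every antiCD47 library, while IgG 1 stood a little above and IgG 2 inside the antiCD47 range, so the treatments overlapped. The mean was 8.56 ± 0.808 CPM in antiCD47 and 22.4 ± 14.9 CPM in IgG (SD, n = 4 each), and the log2 fold change of -1.39 ± 0.43 did not pass. Without IgG 3 it was -0.95 and without IgG 4 -1.22. It passed as lower under 5 of 16 alternatives, among them DESeq2, library totals and the fit without IgG 2 (-1.65). In the authors' deposited table its adjusted p was 0.04.

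The other Myc family genes and partners did not pass by edgeR in any of 11 cases (5 at an unadjusted p below 0.05, 1 by DESeq2). Over all genes tested, 32.5% had an unadjusted p below 0.05 in either direction, and such counts here and in the lists that follow are to be read against that share. Mycl was at -0.60 ± 0.19 (edgeR adjusted p = 0.0704), Mycn at -0.99 ± 0.37 (adjusted p = 0.102) and Mxd3, a Max partner that opposes Myc, at -1.10 ± 0.42 (adjusted p = 0.111). Max itself was at 0.24, and the antagonists Mnt, Mxd1 and Mxi1 at 0.13, 0.19 and -0.05. Of 22 Myc targets outside the nucleolus, 3 rose: Apex1, a DNA repair endonuclease gene (0.80, edgeR adjusted p = 0.0195), Pa2g4 (0.28) and the mitochondrial chaperonin gene Hspd1 (0.29). The median of those 22 was 0.13, and -0.06 with scaling by library totals.

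Other genes of the pathway, listed by role, gave the wider picture. Of 40 further large subunit factors 14 rose and 0 fell, with a median of 0.26, or 0.07 with library totals. Nol9, a kinase of precursor processing, was at 0.61 ± 0.09 (edgeR adjusted p = 0.0147), Ppan at 0.65 ± 0.12 (adjusted p = 0.0195) and Brix1 at 0.56 ± 0.11 (adjusted p = 0.0210). Of 32 further small subunit factors 4 rose and 0 fell, with a median of 0.19, or -0.005 with library totals. Nol10 (0.57), Rcl1 (0.44) and Nol11 (0.30), a UtpA-associated protein, had the smallest p among them. Of 11 further RNA polymerase I genes Polr1f (0.34) and Polr1e (0.50) rose (median 0.17, or -0.02 with library totals). Of 10 snoRNP assembly genes Ruvbl2 (0.34) and Shq1 (0.56), a chaperone of dyskerin, rose (median 0.13, or -0.06 with library totals). These lists are to be read against the 5.44% of all genes that passed as higher, and they too were drawn up with earlier results of these libraries known.

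Ribosomal protein genes, whose products the pathway assembles, are given next. Of 79 ribosomal protein genes 0 passed by edgeR in either direction, 1 had an unadjusted p below 0.05 and 0 passed by DESeq2. Their median was 0.04, with 58 of the 79 above 0. With library totals their median was -0.15 and 0 of the 79 lay above 0, while the median of all genes was -0.19. They summed to 11500 to 12960 CPM in antiCD47 and 11210 to 12100 CPM in IgG. Apart from Rps27, at -1.87 (edgeR adjusted p = 0.0912) and with 0.579 to 1.597 CPM in antiCD47 and 0.934 to 7.75 CPM in IgG, the tested genes lay between -0.12 and 0.15, although reads of ribosomal protein genes can be shared with their many pseudogenes. Of 9 snoRNA host genes 0 passed by edgeR (0 at an unadjusted p below 0.05, 0 by DESeq2), Gas5 being at -0.07. Of 15 tested genes of the RNA exosome and other nucleolar nucleases 0 passed (5 at an unadjusted p below 0.05, close to the 32.5% of all genes, and 2 by DESeq2), with Mtrex, the exosome helicase, at 0.21 (adjusted p = 0.0521). RNA polymerase III, which makes 5S rRNA and tRNA, had 1 of 21 higher, Polr3d (0.43). Of 11 genes of the p53 response that nucleolar stress can set off, 0 passed by edgeR (5 at an unadjusted p below 0.05, 4 by DESeq2), Trp53 being at 0.36 (adjusted p = 0.0599).

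**Figure D4:**
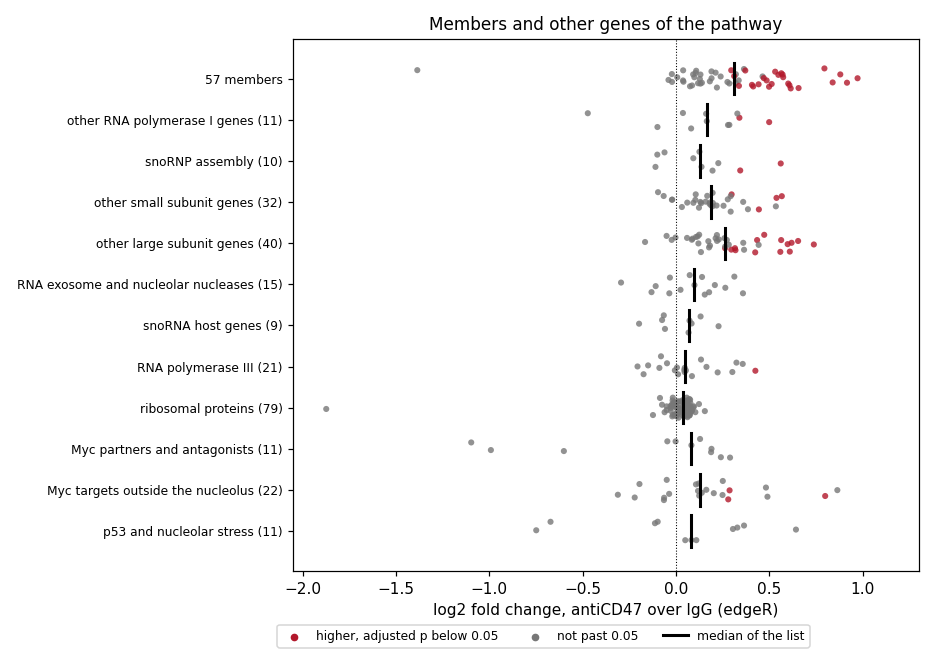
Log2 fold change, antiCD47 over IgG, of the 57 members and of the tested genes of 11 other lists (number in brackets); red points passed as higher and the black line is the median of the list. Medians run from 0.31 for the members and 0.26 for further large subunit factors to 0.04 for ribosomal proteins, whose points form a narrow cluster.

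Levels were also divided by the summed length of all annotated exons of each gene, which can exceed the length of its mRNA. That length was 0.924 kb for Imp3 and 2.665 kb for Npm1, but 10.19 kb for Ncl and 10.76 kb for Nop58. The order below therefore rests partly on annotation, and by CPM alone Ncl stood above Npm1 (221 against 141 CPM in IgG). Npm1 was highest with 52.3 CPM per kb in antiCD47 and 53.1 CPM per kb in IgG, followed by Imp3 with 31.6 CPM per kb in antiCD47 and 29.3 CPM per kb in IgG, Nop10 with 27.3 CPM per kb in antiCD47 and 25.5 CPM per kb in IgG, Ncl with 22.3 CPM per kb in antiCD47 and 21.7 CPM per kb in IgG and Nhp2 with 16.04 CPM per kb in antiCD47 and 15.6 CPM per kb in IgG. None of these 5 passed, and their log2 fold changes lay between -0.02 and 0.11. Rrp1b was lowest with 0.969 CPM per kb in antiCD47 and 0.636 CPM per kb in IgG. Ordered by level in IgG without Myc, the 19 highest members held 6 that rose (median log2 fold change 0.13), the next 18 held 9 (0.35) and the 19 lowest held 10 (0.32). In the same order the members that rose the most, Nop58, Rrp12, Tsr1, Gnl3 and Heatr1, had 1.25 to 3.98 CPM per kb in IgG. The IgG level is also the denominator of the fold change, so level and difference are not independent, and their relation was not tested.

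**Figure D5:**
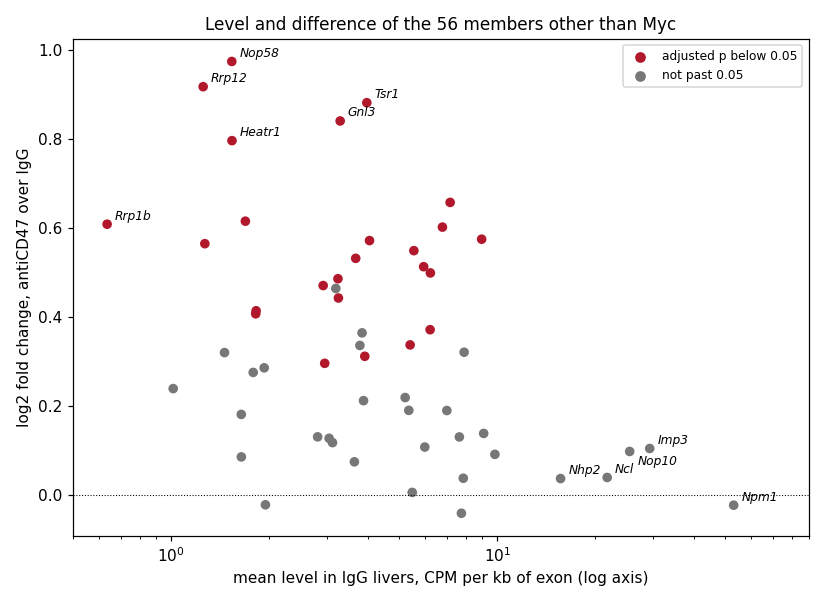
Mean level in IgG livers (CPM per kb of exon, log axis) against the log2 fold change for the 56 members other than Myc; red points passed an adjusted p of 0.05. The 5 members with the highest CPM per kb, labelled at the right, lie near 0, and the members above 0.75 lie below 4 CPM per kb.

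The authors' deposited table gave 26 of the 57 members an adjusted p below 0.05, where 18.4% of its 14362 genes did. Of the 25 members called here, 24 were among them, Ddx18 being the exception with a deposited adjusted p of 0.0529, and the other 2 were Rrn3 and Myc. Annotated exons of 21 members overlap a gene on the opposite strand, the longest overlaps being 1240 bases of Tsr1 with Srr and 820 bases of Wdr3 with Spag17. The sources used here do not say whether counting used strand, so for these members reads of the partner cannot be told apart. Library totals were 43691472 to 55477484 counts.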

How the data were processed

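Polyadenylated RNA of 8 whole-liver libraries (Illumina TruSeq, per the labels' protocols) was analysed, 4 antiCD47 and 4 IgG. The deposited table gives an estimated count for each Ensembl gene as a whole number, not normalized, per the file headers; whether these are rounded Salmon estimates is unstated. The tools Salmon 1.3.0 and DESeq2 1.32.0 and the build GRCm39 are named, without roles, per the submitters' processing notes. The authors' deposited comparison table gives a mean normalized signal, a log2 fold change with its error, p-values, adjusted p-values and a ranking score, per the file headers; only its symbols and adjusted p-values were used, since its header does not state the direction. No per-sample column was left unused.

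Counts were filtered with filterByExpr, scaled with TMM and fitted with glmQLFit and glmQLFTest in edgeR 4.0.16 (R 4.3.3), two-sided; p-values were adjusted by Benjamini-Hochberg across all 15472 tested genes. CPM is the count share of the scaled library size, and log2 fold changes are antiCD47 over IgG with the standard error derived from the F statistic. Symbols came from the deposited table for 14362 genes and from a reference table of gene names for 37139. Exon lengths (GENCODE M21) and promoters (RefSeq) are of an older build than GRCm39. Libraries of 1 group differed beyond sampling noise (chi-square over degrees of freedom at least 25.96), so none was counted as a copy. The fits were checked on simulated data.

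The members, their classes and all lists were chosen with earlier results of these data known. All members could be named; per-library values are given for Myc, Nolc1 and, in each class of 3 or more, the 3 members with the smallest p and the 1 with the largest, and at most 3 genes of each other list are named beside Max, Mxd1, Mxi1 and Mnt. Alternatives were other scalings, no low count filter, DESeq2 1.42.0, limma 3.58.1 voom, the replicate number as a block and leaving out libraries. Figures were drawn with matplotlib 3.10.9.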

Additional observations from a re-analysis of the deposited data

Results flagged for a closer look

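Among the 114 groups of 4 values (57 members in each treatment), 3 held a value far from the other 3, fewer than the 1 in 20 that chance flags. Mphosph10 was at 19.2 CPM in antiCD47 2, against 15.8 to 16.3 CPM in the other antiCD47 libraries. Imp3 was at 25.9 CPM in antiCD47 4, below the other antiCD47 libraries at 29.96 to 30.6 CPM. Bms1 was at 21.6 CPM in IgG 3, below the other IgG libraries at 26.3 to 26.8 CPM.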

How the results depend on the processing

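The members' median log2 fold change stayed above 0 under every alternative run, from 0.12 with library totals to 0.35 without antiCD47 4. The 25 members called higher kept a positive log2 fold change in all 16 alternatives. With 1 library left out, the genes called in the whole table ranged from 2 to 3630, the members called higher from 0 to 28 and the members called lower from 0 to 1. The members' median ranged from 0.24 to 0.35 and the calls in the other pathway lists from 0 to 55, and each such fit has fewer samples. With all libraries, 26 of the 261 tested genes of those lists were called higher and 0 lower. Of all genes, 5.44% were called higher and 5.4% lower. With library totals 3581 genes, 18 members higher and 1 lower were called, and the members' median was 0.12. DESeq2 called 3179 genes (11% of all genes higher and 9.57% lower), 56 of the 261 in the other pathway lists and 1 member lower. Upper quartile scaling called 16 in those lists, where it called 4.1% of all genes higher and 6.26% lower. No low count filter gave 1 member lower. Without IgG 2 and antiCD47 2 together, 1090 of 15505 genes, 20 members higher, 1 lower and 11 in those lists were called. The cause of these shifts was not tested. With the replicate block 2425 genes and 25 members higher were called; same-numbered libraries deviated together with correlations of 0.03, 0.16, -0.02 and 0.03, 1 of 8 libraries correlated best with its own number, and the numbers were not taken as pairs.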
